A study of Homo sapiens with 132 samples.

Results

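MKN1 cells, an established gastric cancer cell line, were compared after 24 h with EGF + cetuximab (3 libraries) and after 24 h without treatment (3 libraries). The 6 libraries were those that the labels give as MKN1, 24 h, EGF+Cet or untreated, out of 42 libraries of MKN1 and 132 libraries in all. The EGF + cetuximab cells received EGF at 5 ng/ml together with cetuximab at 1 µg/ml, and the untreated cells received neither. Both grew in RPMI medium with fetal calf serum, so the untreated cells were not free of growth factors. Libraries were made from polyA RNA with a directional kit. The series holds 4 gastric cancer cell lines, each with 3 replicates per condition, and in MKN1 also EGF alone, cetuximab alone, trastuzumab, afatinib and trastuzumab + afatinib at 4 h and 24 h. MKN1 is 1 cell line, and its replicates are cultures or libraries of that line, without a statement in the labels on which. RNA of a whole culture was measured, so that a change in all cells and a change in a fraction of them cannot be told apart.

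The epidermal growth factor receptor EGFR is a receptor tyrosine kinase that, once bound by EGF or a related ligand, signals through RAS, RAF, MEK and ERK and through PI3K and AKT. ERK signaling switches on transcription factors of the EGR, FOS and ETS families, ligands such as AREG and EREG, and inhibitors of the pathway itself such as the DUSP phosphatases and the Sprouty proteins. Cetuximab is an antibody that binds the extracellular part of EGFR and competes with its ligands. The comparison with untreated cells asks what remains of the EGF response, and of its late targets, when the antibody is present.

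Total counts of the 6 libraries ranged from 44782827 to 58947017, and a floor of 3 counts corresponded to 0.0509 to 0.067 CPM (counts scaled to the library total), which covers counting error only. Levels are given as CPM after TMM normalization. Marker sums alone are in CPM scaled by library size. The summed level of 5 epithelial markers lay between 1.77e+04 and 1.88e+04 CPM with EGF + cetuximab and between 1.78e+04 and 1.91e+04 CPM in untreated cells. Among 15 markers of other cell types, CD68 and HBB were at 0 in all 6 libraries, and CD3E and CDH5 were at 0 with EGF + cetuximab. Their sum lay between 53 and 63.3 CPM with EGF + cetuximab and between 115 and 198 CPM in untreated cells, and most of it came from LUM, which encodes the matrix proteoglycan lumican. Untreated replicate 3 lay nearest to the EGF + cetuximab libraries for many of the genes called by this comparison, and it is named beside the results it touches.

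With EGF + cetuximab, 844 of 19815 genes tested were regulated (4.26%), that is, had an adjusted p below 0.05 in edgeR's quasi-likelihood test and a log2FC above 1 or below -1. Of these, 143 genes were higher (0.722%) and 701 were lower (3.54%) than in untreated cells. By adjusted p alone, 7220 genes passed (36.4%), of which 3612 rose (18.2%) and 3608 fell (18.2%), so that lower genes outnumbered higher genes among the regulated and not among those called by adjusted p alone. The regulated genes were weakly expressed, with a median of 0.733 CPM in untreated cells for the lower and 0.837 CPM for the higher genes, against 8.19 CPM over all genes tested. The groups did not overlap for 130 of the 143 higher and 624 of the 701 lower genes, values that belong to genes chosen by this comparison. The share over all genes tested is not given here, so these counts have no reference. The genes nearest to the limit were ADARB2, just inside it with a log2FC of 1.001, and LRRIQ4, just outside it among the lower genes. When the replicate block was left out of the fit, this number was 669. Counts of list members that rose or fell, given for each gene list from here on, stand beside the 18.2% of all genes tested in each direction. Scaled by library size alone, 94 genes were higher and 965 lower, and the median log2FC of all genes was -0.145 instead of -0.024.

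**Figure D1:**
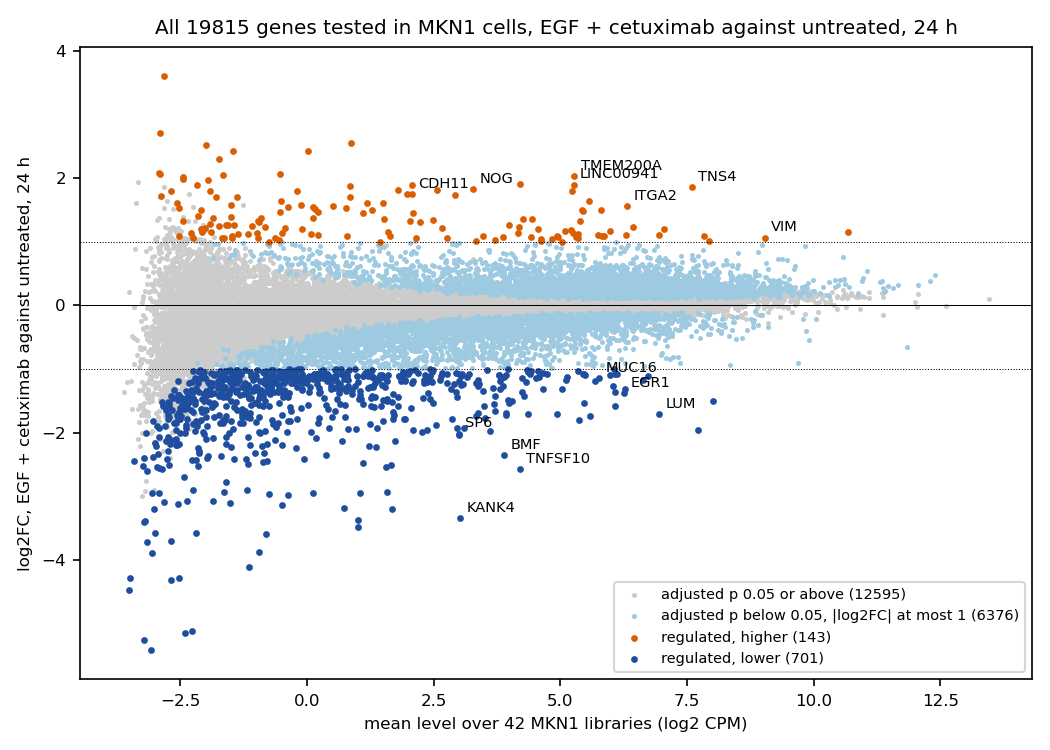
Each point is 1 of the 19815 genes tested, with the mean level over the 42 MKN1 libraries (log2 CPM, horizontal axis) and the log2FC of EGF + cetuximab against untreated at 24 h (vertical axis), and colours separate genes that were regulated higher (143), regulated lower (701), passed the adjusted p alone or did not pass. The lower genes reach larger fold changes and lie mostly at low levels.

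Of the 143 regulated higher genes, untreated replicate 3 was the highest untreated library in 100 (69.9%), and of the 701 lower genes it was the lowest in 428 (61.1%). These shares describe regulated genes only, and those over all genes tested are not given here. Without untreated replicate 3, 1192 genes were regulated. Without untreated replicate 1, the number was 552.

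The most strongly raised gene by log2FC among the better expressed ones was TMEM200A (chromosome 6, 130365734 to 130443063, GRCh38), which encodes a transmembrane protein. Its level was 7.81, 7.09 and 13.1 CPM in the 3 untreated libraries and 41.1, 33.3 and 38.6 CPM with EGF + cetuximab. The groups were far apart, with a log2FC of 2.04 (SE 0.149, edgeR adjusted p = 8.14e-12, n = 3 libraries per group). TNS4 (chromosome 17, 40475828 to 40501597), a tensin of focal adhesions, had 46.1, 58.5 and 154 CPM in untreated cells and 272, 244 and 330 CPM with EGF + cetuximab. Its untreated replicate 3 stood apart from the other untreated libraries. The log2FC of TNS4 was 1.85 with all libraries, 2.24 without that one and 1.61 without untreated replicate 1.

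The other leading rises contained secreted antagonists and regulators. NOG, the BMP antagonist noggin, rose from 2.05, 2.94 and 4.12 CPM to 9.47, 11.3 and 11.1 CPM, with a log2FC of 1.82 (edgeR adjusted p = 8.5e-10). BMPER, a secreted BMP-binding protein, had a log2FC of 1.80, and TRABD2B, a membrane metalloprotease known to act on Wnt proteins, had 1.81. The noncoding RNAs LINC00941 and MIR100HG had log2FC of 1.90 and 1.89, where LINC00941 overlaps another transcript on the same strand, so that their counts may be split. The mesenchymal cadherin CDH11 rose from 1.01, 1.43 and 2.9 CPM to 4.39, 5.42 and 7.73 CPM (log2FC 1.75), and the untreated and treated libraries did not overlap. The forkhead factor FOXL1 (1.74) and the membrane-bound ubiquitin ligase MARCH4 (1.80) were also among the leading genes. AC018629.1, a putative transcript beside TNS4, had 1.91. TRBC2, a T cell receptor constant region with a near-identical copy, had 1.75, and its counts are uncertain for that reason.

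The largest fall by the same rule was that of TNFSF10 (chromosome 3, 172505508 to 172523507), which encodes the death ligand TRAIL. It had 31.7, 23.5 and 10.6 CPM in untreated cells and 3.46, 3.45 and 3.9 CPM with EGF + cetuximab. All treated libraries lay below the lowest untreated one, replicate 3, and the log2FC was -2.58 (SE 0.248, edgeR adjusted p = 1.43e-09). With only the 6 libraries compared in the fit, the edgeR adjusted p of TNFSF10 was 7.26e-05, the highest of 14 alternatives. BMF (chromosome 15, 40087890 to 40108892), a BH3-only protein that promotes apoptosis, fell from 22.3, 14.3 and 6.87 CPM to 2.66, 3.33 and 2.25 CPM, a log2FC of -2.35. Again untreated replicate 3 was nearest to the treated libraries, without reaching them.

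Further leading falls were those of the transcription factor SP6 (log2FC -2.02), the small GTPase RAB17 of polarized epithelia (-1.95), the membrane skeleton protein EPB41L3 (-1.93), the serine protease TMPRSS3 (-1.96), MPPED2 (-1.92), MYBPHL (-1.88), IQCN and SSPO (-2.04). RARRES1, a gene first described as retinoic acid responsive, was the most abundant of them and fell from 261, 204 and 202 CPM to 51.7, 50.4 and 74.6 CPM (log2FC -1.96). It overlaps MFSD1 on the opposite strand, and the strand setting of the counting is not given in the sources used here. IGHE, an immunoglobulin constant region, had a log2FC of -1.98. A still larger change was seen for KANK4, a KN motif and ankyrin repeat protein, which is among the genes with the largest fall against cetuximab alone. KANK4 had 12.8, 5.7 and 2.58 CPM in untreated cells and 0.758, 0.677 and 0.535 CPM with EGF + cetuximab (log2FC -3.35).

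**Figure D2:**
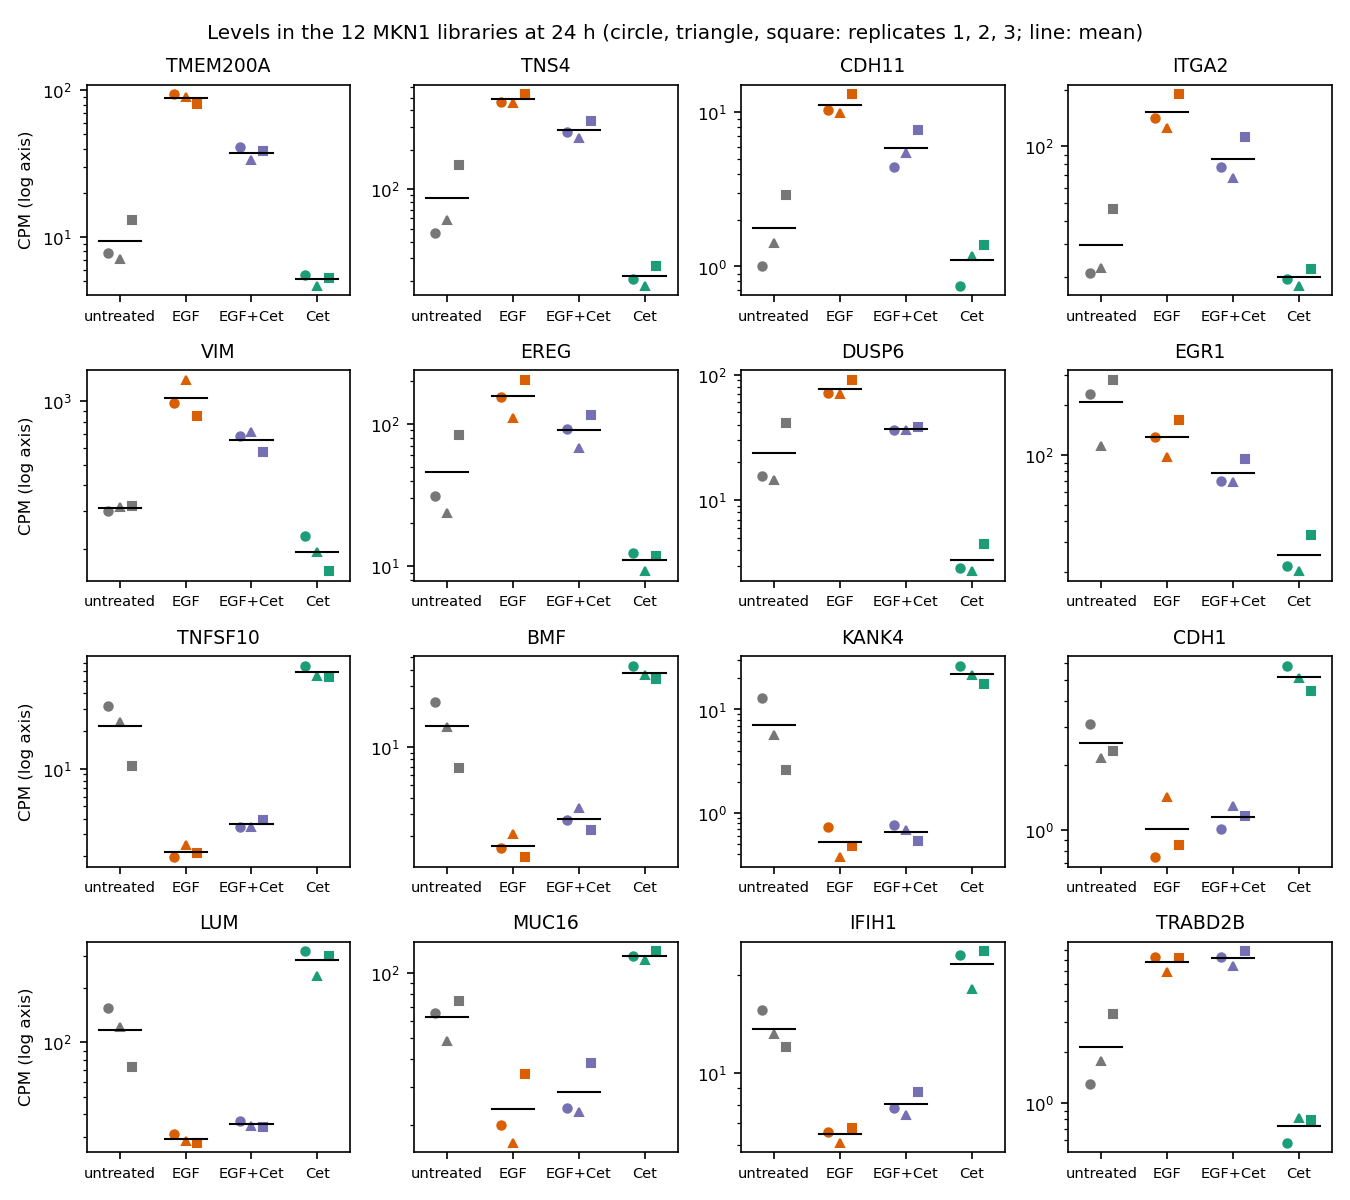
Levels of 16 genes in the 12 MKN1 libraries of 24 h (CPM, log axis), with circles, triangles and squares for replicates 1, 2 and 3 and a line for the mean of the 3. For TMEM200A the EGF + cetuximab libraries (33.3 to 41.1 CPM) lie between untreated (7.09 to 13.1) and EGF alone, while for DUSP6 untreated replicate 3 (41.2 CPM) lies above all 3 EGF + cetuximab libraries.

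Among the 4 ERBB receptors, EGFR rose, ERBB2 and ERBB3 fell and ERBB4 did not pass, with a median log2FC of -0.41. EGFR had 292, 230 and 251 CPM in untreated cells and 388, 306 and 329 CPM with EGF + cetuximab, a log2FC of 0.40 (SE 0.0841, edgeR adjusted p = 0.000295). ERBB2 had a log2FC of -0.49 and ERBB3, the neuregulin receptor, of -0.50, and for ERBB4, between 0.472 and 1.78 CPM, it was -0.34 (edgeR adjusted p = 0.426). Without the replicate block EGFR (edgeR adjusted p = 0.101) and ERBB3 (0.0736) did not pass, which were the highest of 14 alternatives, the lowest being 1.39e-05 and 1.57e-05.

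Of 7 EGFR ligand genes, 3 rose, 2 fell and 2 did not pass, with a median log2FC of 0.41. EREG, epiregulin, had 31.3, 23.8 and 83 CPM in untreated cells and 91.2, 67.3 and 115 CPM with EGF + cetuximab. Its untreated replicate 3 lay above the second treated library, and the log2FC was 1.11 (SE 0.237, edgeR adjusted p = 0.00037). AREG, amphiregulin, had 5.8, 6.33 and 17 CPM against 13.2, 14.6 and 21.1 CPM, also with an overlap through untreated replicate 3 (log2FC 0.86). TGFA rose without overlap, from 17.2, 16.1 and 23 CPM to 26.4, 24 and 32.3 CPM (log2FC 0.56, edgeR adjusted p = 2.23e-07). HBEGF did not pass with all libraries (log2FC 0.41, edgeR adjusted p = 0.16), and passed without untreated replicate 3 (0.72, edgeR adjusted p = 0.0169, the lowest of 14 alternatives, the highest being 0.58). The gene of EGF itself, at 2.33, 1.96 and 1.22 CPM in untreated cells, fell to 0.881, 0.856 and 0.792 CPM (log2FC -1.12), and BTC fell by 0.28 on the log2 scale. Without the replicate block AREG (edgeR adjusted p = 0.217), EREG (0.0655) and BTC (0.562) did not pass. These were the highest values of 14 alternatives, the lowest being 4.84e-06, 3.84e-07 and 0.0025.

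The inhibitors that ERK signaling induces were divided. Of 7 Sprouty and SPRED genes, 3 rose, namely SPRED1 (log2FC 0.79), SPRED2 (0.67) and SPRY4 (0.90), SPRED3 fell (-0.44) and 3 did not pass. SPRED1 had 21.8, 21.3 and 33.4 CPM in untreated cells and 46.7, 37.5 and 47 CPM with EGF + cetuximab, without overlap. SPRY2 was at 13.3, 13.1 and 16.3 CPM against 14.9, 14.1 and 13 CPM, a log2FC of -0.01 (edgeR adjusted p = 0.944). SPRY4 overlaps SPRY4-AS1 on the opposite strand. Of 10 MAPK phosphatases tested, 4 rose and 3 fell, while DUSP1 held 0 counts in every MKN1 library and was not tested. DUSP7, an ERK phosphatase of the cytoplasm, rose from 42.4, 34.8 and 52.5 CPM to 92.6, 67.6 and 82.9 CPM (log2FC 0.91), and DUSP4 (0.99) and DUSP9 (0.23) also rose. DUSP2 (-0.87), DUSP8 (-0.61) and DUSP16 (-0.55) fell.

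DUSP6 (chromosome 12, 89347232 to 89353271), the ERK-specific phosphatase often used as a readout of the pathway, had 15.5, 14.6 and 41.2 CPM in untreated cells and 36.3, 36.2 and 38.1 CPM with EGF + cetuximab. The treated libraries were close together, whereas untreated replicate 3 lay above them and the other untreated libraries below. The log2FC was 0.80 (SE 0.257, edgeR adjusted p = 0.0137). Over 14 alternatives in edgeR and DESeq2, DUSP6 did not pass in 6 and SPRY4 in 4, among them the fits without the replicate block, without untreated replicate 1, without EGF + cetuximab replicate 1 and, for DUSP6, without untreated replicate 2. The adjusted p of DUSP6 ranged from 0.000586 to 0.239 and that of SPRY4 from 0.00012 to 0.132. Of 9 feedback genes that act at the receptor, LRIG1 (0.43), LRIG3 (0.31) and SOCS5 (0.17) rose and the ubiquitin ligase CBLB fell (-0.70). LRIG1, LRIG3 and SOCS5 did not pass without the replicate block, without untreated replicate 1 or when scaled by library size alone. The median of this list was 0.10 and turned to -0.02 when libraries were scaled by size alone.

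**Figure D3:**
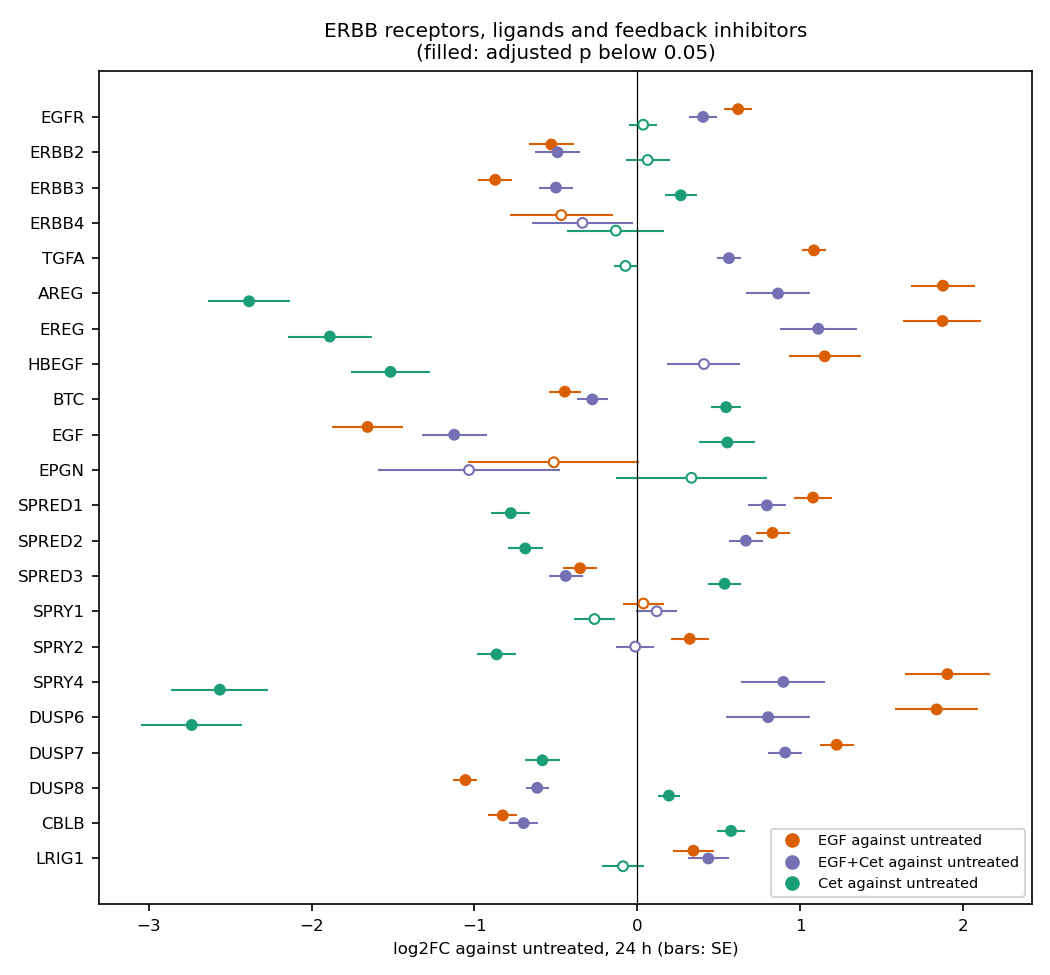
Log2FC against untreated cells at 24 h (horizontal axis, bars are SE) of ERBB receptors, ligands and feedback inhibitors for EGF alone, EGF + cetuximab and cetuximab alone, with filled points for an adjusted p below 0.05. All 3 comparisons use the same untreated libraries. For EREG and DUSP6 the value with EGF + cetuximab (1.11 and 0.80) is positive.

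The transcription factors downstream of ERK also moved both ways. Of 26 tested, 10 rose and 9 fell, with a median log2FC of 0.11, against -0.02 over all genes tested. The median turned to -0.01, with 7 rises and 10 falls, when libraries were scaled by size alone. FOSB and JUNB held 0 counts in every MKN1 library and were not tested. FOSL1, an AP-1 subunit, had 68.3, 75.1 and 125 CPM in untreated cells and 197, 176 and 166 CPM with EGF + cetuximab (log2FC 1.01, edgeR adjusted p = 0.0014). The ETS factors ETV5 (1.05) and ETV1 (1.03) rose, and so did MYC, from 18.4, 19.5 and 25.4 CPM to 33.3, 35.6 and 30.5 CPM (0.65). For ETV1 untreated replicate 3 (21.7 CPM) lay above the second treated library (20.9 CPM), and it did not pass without the replicate block.

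The immediate early factors of the EGR family fell. EGR1 (chromosome 5, 138465490 to 138469315) had 232, 113 and 282 CPM in untreated cells and 69.4, 68.8 and 95.2 CPM with EGF + cetuximab. Every treated library lay below every untreated one, with a log2FC of -1.38 (SE 0.268, edgeR adjusted p = 0.000128). EGR2 (log2FC -2.42) and EGR3 (-1.44) fell as well. EGR3 rested partly on untreated replicate 1, its highest library at 8.25 CPM against 2.21 and 5.71 CPM in the others. Without that library the log2FC was -0.75 and did not pass (edgeR adjusted p = 0.0609, the highest of 14 alternatives, the lowest being 1.76e-06). FOS, the AP-1 subunit that is induced first by serum or growth factors, fell from 29.9, 33.5 and 34.6 CPM to 16.8, 20.1 and 14.9 CPM (-0.92).

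Secreted factors and the genes of matrix and adhesion followed. Of 19 cytokine genes tested, 4 rose and 4 fell, a share close to that of all genes (18.2% in each direction). IL11, a cytokine of the IL-6 family, had 4.36, 4.97 and 8.33 CPM in untreated cells and 13, 13.6 and 13.9 CPM with EGF + cetuximab, a log2FC of 1.23 (edgeR adjusted p = 3.28e-08). LIF of the same family (0.67), CSF2 (1.60) and IL1B (1.71) rose, the last 2 from below 1 CPM, where untreated replicate 3 of CSF2 (0.644 CPM) lay above the first treated library (0.617 CPM). TNFSF15 fell from 4.29, 2.17 and 2.38 CPM to 0.652, 1.08 and 0.857 CPM (-1.79), and IL15 fell by 0.46 on the log2 scale. Of 12 chemokine genes tested, CXCL8 rose (0.73), 2 fell and 9 did not pass. CXCL8 did not pass without the replicate block or without untreated replicate 1, and 4 chemokine genes fell when scaled by library size alone.

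Of 7 genes of the plasminogen and clotting systems, 6 rose. PLAT, the tissue-type plasminogen activator, had 434, 448 and 628 CPM in untreated cells and 762, 810 and 875 CPM with EGF + cetuximab, without overlap, and a log2FC of 0.71 (edgeR adjusted p = 6.03e-07). The urokinase receptor PLAUR (0.63), SERPINE2 (0.86) and SERPINB2 (1.80) rose, although SERPINB2 stayed below 0.5 CPM. The clotting genes of the list were tissue factor F3, which rose (0.61), and its inhibitor TFPI, which fell (-0.49). The median of the list was 0.71, and PLAUR did not pass without the replicate block.

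To show the sequence beside genes of this response, the RefSeq promoters (GRCh38.p14, 250 bases before to 50 after a start) were searched on both strands for the AP-1 letters TGANTCA. They were held by 5.94% of 17646 promoters of all genes tested, by 9.71% of 103 promoters of the higher and by 11.3% of 530 promoters of the lower genes. Promoters were found for 74 of 143 higher and 355 of 690 lower genes with a symbol, and a match describes the letters and not a binding site. The letters CCGGAAG of ETS factors were held by 14.1% of all, 3.88% of the higher and 2.64% of the lower promoters. GTAAACA of FOXO factors was held by 2.84%, 2.91% and 5.09%, and the E-box CACGTG by 8.74%, 7.77% and 5.47%. The 250 bases before the start of 2 higher genes (IL11, chr19:55370464-55370713, minus strand, and SERPINB2, chr18:63887455-63887704, plus strand) and 2 lower genes (EGF, chr4:109912633-109912882, plus strand, and TNFSF15, chr9:114792531-114792780, minus strand) are shown in gene direction with the AP-1 letters in capitals, whose first base lies at -96, -102, -17 and -120 from the start. These genes were picked because their promoters hold the AP-1 letters, so they do not show how common the letters are. The starts of SERPINB2 and TNFSF15 lie inside the genes as GENCODE 29 draws them.
IL11: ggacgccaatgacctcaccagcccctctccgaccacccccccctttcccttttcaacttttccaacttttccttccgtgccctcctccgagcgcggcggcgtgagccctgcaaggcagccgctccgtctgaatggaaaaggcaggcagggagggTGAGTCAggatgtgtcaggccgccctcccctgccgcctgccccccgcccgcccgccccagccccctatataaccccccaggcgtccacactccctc
SERPINB2: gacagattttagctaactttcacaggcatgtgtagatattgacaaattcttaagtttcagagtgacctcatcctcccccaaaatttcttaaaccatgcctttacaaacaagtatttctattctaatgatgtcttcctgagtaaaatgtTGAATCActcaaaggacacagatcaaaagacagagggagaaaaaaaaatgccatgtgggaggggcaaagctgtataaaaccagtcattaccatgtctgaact
EGF: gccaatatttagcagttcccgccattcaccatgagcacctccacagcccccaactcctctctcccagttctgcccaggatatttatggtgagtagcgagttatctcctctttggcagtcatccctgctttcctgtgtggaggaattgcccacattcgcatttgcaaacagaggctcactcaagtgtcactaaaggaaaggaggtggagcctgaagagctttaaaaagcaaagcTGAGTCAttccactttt
TNFSF15: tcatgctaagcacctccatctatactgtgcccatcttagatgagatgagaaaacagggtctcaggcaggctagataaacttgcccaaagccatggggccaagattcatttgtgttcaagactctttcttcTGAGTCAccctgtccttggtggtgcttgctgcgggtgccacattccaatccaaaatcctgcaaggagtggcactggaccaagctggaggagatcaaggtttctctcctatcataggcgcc

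Of 18 integrin genes tested, 7 rose and 3 fell, beside 18.2% of all genes in each direction. ITGA2, the collagen-binding alpha 2 subunit, had 21, 22.4 and 46 CPM in untreated cells and 77.7, 67.5 and 113 CPM with EGF + cetuximab (log2FC 1.56, edgeR adjusted p = 2.42e-09). ITGA9 (1.06), ITGA6 (0.87) and ITGB5 (0.50) rose, and ITGB6 (-0.81) and ITGA11 (-0.77) fell. Among 28 collagen chains 7 rose, led by COL13A1 (1.46) and COL6A3 (1.36), and 8 fell, led by COL3A1 (-1.72) and COL5A2 (-1.04), beside 18.2% of all genes in each direction. Scaled by library size alone, 5 collagen chains rose and 11 fell, and 5 integrin genes rose and 5 fell. COL6A3 did not pass without the replicate block (edgeR adjusted p = 0.0699, the highest of 14 alternatives, the lowest being 1.44e-16). Of 11 metalloproteinase and TIMP genes tested, MMP15 (0.18) and MMP17 (0.24) rose and 5 fell, among them MMP14 (-0.93) and MMP13 (-2.31), the latter at 0.344 to 0.47 CPM in untreated cells. Neither MMP15 nor MMP17 passed when scaled by library size alone, and MMP17 did not pass without the replicate block or without untreated replicate 1 either.

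Several markers of fibroblasts and other cell types fell. LUM fell from 155, 122 and 72.6 CPM to 36.8, 34.3 and 34.1 CPM (log2FC -1.71, edgeR adjusted p = 8.05e-11). PDGFRB, a receptor of mesenchymal cells, had 4.93, 3.17 and 1.52 CPM against 0.811, 1.2 and 0.664 CPM (-1.82), and DCN, decorin, was below 0.5 CPM in every library (-2.19). Scaled by library size, DCN had 0.0576 to 0.0679 CPM with EGF + cetuximab, near the floor of 3 counts (0.0509 to 0.067 CPM). PDGFRA, another fibroblast marker, was near or below that floor in both groups. It had 0.0436 to 0.0757 CPM in untreated cells and 0.0339 to 0.0637 CPM with EGF + cetuximab. Of 11 tested markers of other cell types, 7 fell and 4 did not pass. Their relation to those collagen chains that fell was not tested.

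Epithelial and mesenchymal genes were affected in opposite directions at some of the best known members, while the list was balanced, with 7 of 27 rising, 7 falling and a median of -0.02. VIM (chromosome 10, 17228259 to 17237593), the mesenchymal filament vimentin, had 300.3, 315 and 318 CPM in untreated cells and 684, 715 and 572 CPM with EGF + cetuximab (log2FC 1.06, edgeR adjusted p = 7.79e-10), and VIM-AS1 lies on the opposite strand. CDH1, E-cadherin, had only 3.11, 2.17 and 2.34 CPM in untreated cells and fell to 1.00, 1.29 and 1.16 CPM (-1.14). Of the 5 epithelial markers, CDH1 fell, KRT18 rose (0.28, not without the replicate block) and 3 did not pass. The fibroblast markers LUM, PDGFRB and DCN did not follow VIM and fell, DCN to levels near the floor, and PDGFRA was too weak to read. The splicing factor ESRP1 (-1.30) and the tight junction genes CLDN7 (-1.62) and CLDN4 (-0.83) fell, whereas CLDN1 (0.39) and KRT6A (0.91) rose, KRT6A not without the replicate block. ZEB1 rose by 0.28. Of 18 gastric and gut genes tested, MUC16 (-1.15), MUC1 (-1.05), HNF4A (-1.01) and MUC4 (-0.91) fell, and GATA6 (0.74), GATA4 (0.40), TFF2 (0.54), MUC5AC (0.39) and KLF4 (0.14) rose. Of 17 other receptor kinases 5 rose, led by MET, the HGF receptor (0.74), and 4 fell, among them KIT (-1.66). Scaled by library size alone, 5 epithelial and mesenchymal genes rose and 9 fell, 3 gastric and gut genes rose and 5 fell, and 4 receptor kinases rose and 5 fell.

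Among cell cycle genes the changes were small. Of 41 S phase genes tested, 21 rose and BRIP1 fell, with a median of 0.19, and of 51 G2/M genes 14 rose and 37 did not pass, with a median of 0.08. Scaled by library size alone, 9 S phase genes rose and the same list had a median of 0.07, and 5 G2/M genes rose and 7 fell, with a median of -0.04. CCND1, cyclin D1, had 361, 338 and 515 CPM in untreated cells and 765, 575 and 676 CPM with EGF + cetuximab (log2FC 0.72, edgeR adjusted p = 0.000453). CCNE1, cyclin E1, rose by 0.52, and the inhibitors CDKN2C (-0.39), CDKN1A (-0.25) and CDKN1B (-0.16) fell. The list of cell cycle entry genes was balanced, with 3 rises, 3 falls and 7 that did not pass among 13 tested. Its median was 0.09, and 3 rose and 5 fell when scaled by library size alone.

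In metabolism, 11 of 22 glycolysis and hypoxia genes rose and 4 fell, led by HK2, hexokinase 2 (39.6, 34.3 and 46.8 CPM against 83.8, 63.8 and 76.4 CPM, log2FC 0.89). TXNIP, which restrains glucose uptake, fell by 0.43 on the log2 scale. Of 29 sterol and fatty acid genes 7 rose, among them FASN (0.43) and SQLE (0.28), and 5 fell, led by INSIG1 (-1.06), an inhibitor of sterol synthesis, whereas 3 rose and 11 fell when scaled by library size alone. Of 15 genes of FOXO and PI3K signaling, IRS1 rose (0.53) and 8 fell, among them BMF, CCNG2 (-0.73) and PIK3IP1 (-0.97). The stress response list had 5 rises and 1 fall among 13 genes, the p53 targets 2 and 5 among 12, and the YAP targets 5 and 5 among 16. Scaled by library size alone, these counts were 3 and 4, 1 and 7, and 3 and 7.

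Of 19 interferon-stimulated genes tested, 12 fell and 7 did not pass, beside 18.2% of all genes that fell, with a median log2FC of -0.48 against -0.02 over all genes. IFIH1, the RNA sensor MDA5, had 15.6, 13.2 and 12 CPM in untreated cells and 7.83, 7.43 and 8.76 CPM with EGF + cetuximab (log2FC -0.77, edgeR adjusted p = 4.92e-09). MX1, an antiviral GTPase (-0.82), and IFI44 (-1.07) fell without overlap of the groups. The listed genes IFIT1, IFIT2, IFIT3, OAS2, OAS3 and IRF9 held 0 counts in every MKN1 library and were not tested.

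**Figure D4:**
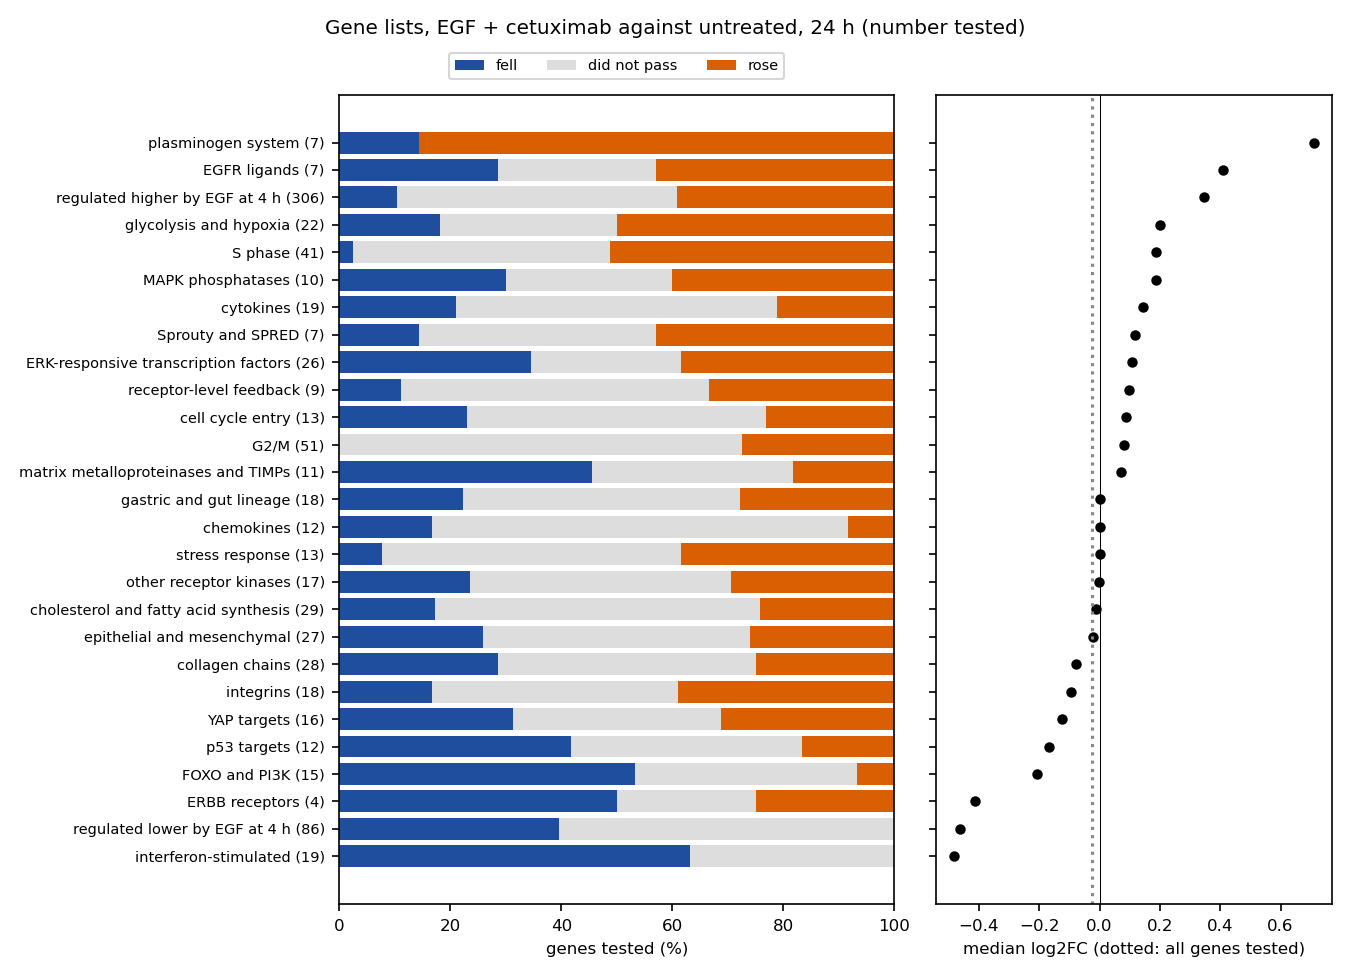
For each gene list, the bars show the share of tested genes (%) that fell, did not pass or rose with EGF + cetuximab against untreated at 24 h, with the number tested in parentheses, and the points show the median log2FC, with a dotted line at -0.02 for all genes tested. The plasminogen list lies highest (0.71) and the interferon-stimulated genes lie lowest among the pathway lists (-0.48).

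The position of the combination between EGF alone and cetuximab alone was read from direct comparisons. Against EGF alone, 102 genes were regulated with EGF + cetuximab (0.515%), 45 higher (0.227%) and 57 lower (0.288%). Against cetuximab alone, 2801 genes were regulated (14.1%), 605 higher (3.05%) and 2196 lower (11.1%). Against untreated cells, 1856 genes were regulated by EGF alone (9.37%) and 411 by cetuximab alone (2.07%). The comparisons share libraries, so their values are only set side by side. TMEM200A had a mean of 88.3 CPM with EGF alone and 5.16 CPM with cetuximab alone, and EGF + cetuximab differed from both, with log2FC of -1.24 and 2.87. TRABD2B did not differ detectably from EGF alone (log2FC 0.08, edgeR adjusted p = 0.836), at a mean of 6.78 CPM there. DUSP6 had a mean of 77.2 CPM with EGF alone and 3.35 CPM with cetuximab alone, and its log2FC with EGF + cetuximab was -1.03 against EGF and 3.54 against cetuximab. For EGR1 the means were 129 CPM with EGF alone and 25.1 CPM with cetuximab alone, and EGF + cetuximab was 1.66 higher on the log2 scale than cetuximab alone. RARRES1 (1.08) and IGHE (1.28) were higher with EGF + cetuximab than with EGF alone, where RARRES1 had 27.9 CPM and 520 CPM with cetuximab alone.

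Whether cetuximab changed the effect of EGF was tested as the difference between EGF + cetuximab against cetuximab and EGF against untreated. In 154 genes (0.777%) this difference passed the criteria, 43 of them higher (0.217%) and 111 lower (0.56%) in the presence of the antibody. Without the replicate block only 16 genes passed. EGR1 had a difference of 2.32, from a log2FC of 1.66 with the antibody and -0.66 without it. DUSP6 had a difference of 1.70 and EGR3 of 2.15, and cetuximab alone had the lowest mean of the 4 groups for all 3 genes. SERPINB2 had a difference of -3.11, TNFSF15 of -2.39 and AOC1 of -1.46.

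The genes that EGF regulates early were followed through the 4 h libraries, which are separate from those of 24 h. EGF alone regulated 306 genes higher (1.54%) and 86 lower (0.434%) after 4 h. Of the 306 genes, 120 rose and 32 fell with EGF + cetuximab after 24 h, with a median log2FC of 0.35, beside 18.2% of all genes in each direction. With EGF alone after 24 h, 196 rose and 28 fell, with a median of 0.95, beside 24.7% and 26.4% of all genes. Of the 86 genes, 34 fell with EGF + cetuximab and 52 did not pass, with a median of -0.46, and 47 fell with EGF alone, with a median of -0.72. The mean level of the 306 genes was 0.62, 0.69 and 0.88 log2 CPM in untreated cells, 0.97, 1.07 and 1.15 with EGF + cetuximab, 1.57, 1.61 and 1.71 with EGF alone and 0.39, 0.53 and 0.51 with cetuximab alone. The 4 groups did not overlap in this mean, and untreated replicate 3 was nearest to the combination. A further list held extremes of EGF alone and of cetuximab alone, picked from earlier work on these data. Of its 13 genes tested, 2 rose, 9 fell and 2 did not pass. PTHLH rose (log2FC 1.23), VAV3 (-1.53), CXCR4 (-1.07), PPARGC1A (-1.06) and AOC1 (-1.19) fell, and ESM1 did not pass (1.00, edgeR adjusted p = 0.0662). Because these genes were chosen with results of the same data known, their values are no separate evidence of a remaining EGF response.

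**Figure D5:**
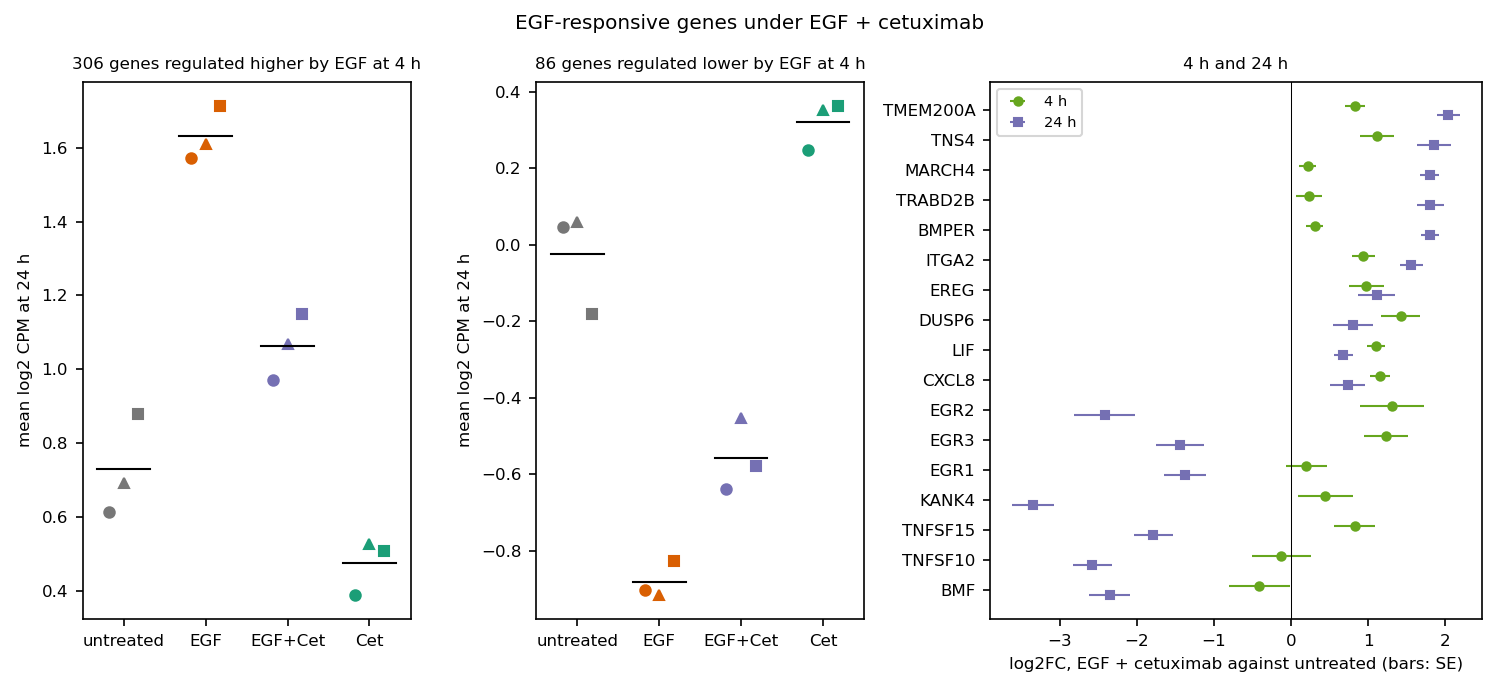
Left and middle, the mean log2 CPM at 24 h of the 306 and the 86 genes that EGF alone regulated higher or lower at 4 h, for each library and group (line, mean of 3). Right, log2FC of EGF + cetuximab against untreated (bars, SE) at 4 h and 24 h for 17 genes, where EGR2, EGR3, KANK4, TNFSF10 and BMF lie far lower at 24 h.

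The response to EGF + cetuximab held fewer genes at the earlier time point. With 4 h of treatment, 51 genes were regulated (0.257%), 45 higher (0.227%) and 6 lower (0.0303%). The difference between the log2FC at 24 h and at 4 h passed the criteria in 468 genes (2.36%), of which 439 were lower (2.22%) and 29 higher (0.146%) at 24 h. EGR3 was higher after 4 h (log2FC 1.23, edgeR adjusted p = 0.00733) and lower after 24 h, a difference of -2.67. TNFSF10 had a log2FC of -0.13 after 4 h (edgeR adjusted p = 0.962), and the difference was -2.44. MARCH4, at 0.21 after 4 h, had a difference of 1.58 and TMEM200A, at 0.83, of 1.21. PTHLH had the same log2FC at both times (1.23 and 1.23), with a difference of 0.00 (edgeR adjusted p = 0.998). TGFA, AREG, EREG and DUSP6 had differences that did not pass (edgeR adjusted p from 0.22 to 0.837). Other members of their lists differed. By adjusted p, the log2FC was lower at 24 h in 3 of 7 EGFR ligands and 4 of 10 MAPK phosphatases. It was also lower in 10 of 26 transcription factors downstream of ERK. The opposite held for 0, 1 and 2 genes of these lists. Over all genes tested, 7.7% were lower and 7.76% higher.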

How the data were processed

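RNA sequencing of MKN1 cells was analysed from raw counts per Ensembl gene identifier, which the authors deposited for each library without normalization. The submitters' processing notes name Trim Galore, STAR and hg38, while the counting program, its strand setting and the annotation are not given in the sources used here. Identifiers were matched to GENCODE 29, which lacks 8404 of 65217 (0.0374% of MKN1 counts), and 37 mitochondrial identifiers held 0 counts. Several listed genes, among them TIMP1, ITGA5, SOX9 and XBP1, also held 0 counts in every MKN1 library. Absence from the counting and absence of expression cannot be told apart for them. Groups came from the treatment and time in the labels. All 42 MKN1 libraries (39005311 to 69434151 counts) entered 1 quasi-likelihood fit (glmQLFit and glmQLFTest of edgeR 4.0.16, R 4.3.3). Weak genes were removed by filterByExpr, at settings of 10 for the count in a library and 15 for the sum, and libraries were scaled by TMM. The model had 14 condition means and the replicate number within each time point as a block, on 24 residual degrees of freedom. P-values were adjusted by Benjamini-Hochberg over 19815 genes. SE was the absolute log2FC divided by the square root of F.

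The replicate numbers come from the labels and were taken as pairs by the plan of this comparison. Deviations of same-numbered libraries from their group means correlated between EGF + cetuximab and untreated cells (r across genes 0.244, 0.386 and 0.254). The labels do not say that replicates were separate cultures, so that p-values measure the spread between these libraries. The comparison, its gene lists and the named genes were chosen with earlier results of these data known. Genes named are the 12 largest rises and falls by log2FC of regulated genes whose mean log2 CPM exceeded 1 and that had the same direction in all 3 pairs, all ERBB receptors, EGFR ligands and Sprouty and SPRED genes, of each other list at most 4 members with the smallest p and any regulated member, the 6 largest rises and falls against cetuximab by the same rule, and extremes of EGF and cetuximab alone. Other list members given by their log2FC were chosen after their values were seen. Log2 CPM used a prior count of 2.

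Alternatives were no block, fits of the 21 libraries of 24 h or of the 6 compared, DESeq2 1.42.0, its size factors in edgeR, no filter, scaling by library size alone, a minimum of 10 counts in all libraries and leaving out each of the 6 libraries in turn. Scripts were tested on simulated data. Promoters were taken from RefSeq (GRCh38.p14) for 12179 of 19639 tested symbols. Figures used Python 3.11.15 and matplotlib 3.10.9. Trastuzumab and afatinib libraries entered the MKN1 fit only, and the other cell lines were not analysed here.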

Additional observations from a re-analysis of the deposited data

Results flagged for a closer look

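The effect of EGF + cetuximab differed between 24 h and 4 h in 468 genes by an interaction contrast in edgeR (adjusted p below 0.05 and an absolute difference above 1). KANK4 had a difference in log2FC of -3.79, from 0.44 after 4 h (edgeR adjusted p = 0.713) to -3.35 after 24 h, and EGR2 one of -3.72, from 1.31 (edgeR adjusted p = 0.0759) to -2.42. MARCH4 had 1.58, TRABD2B 1.57 and BMPER 1.5, each from a log2FC between 0.21 and 0.30 after 4 h that did not pass. CDH5 had a fitted difference of -6.19, which depends on the prior count and is no bound, since all 3 EGF + cetuximab libraries of 24 h were at 0.

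The effect of EGF differed with and without cetuximab in 154 genes by the interaction contrast at 24 h. SERPINB2 had a difference of -3.11 (edgeR adjusted p = 8.74e-05), with levels below 1.5 CPM in all 4 group means. TNFSF15 had -2.39 (edgeR adjusted p = 3.69e-05) and AOC1 -1.46 (edgeR adjusted p = 0.022), genes that cetuximab alone held at means of 12.6 and 9.49 CPM against 0.864 and 1.22 CPM with EGF + cetuximab. EGR1 had 2.32 (edgeR adjusted p = 0.000158), EGR3 2.15 (edgeR adjusted p = 0.00666) and DUSP6 1.7 (edgeR adjusted p = 0.00578).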

How the results depend on the processing

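The replicate number as a block moved the counts of regulated genes. Without the block, EGF + cetuximab against untreated at 24 h gave 669 genes instead of 844 (667 of them shared), against EGF 31 instead of 102 (22.6% higher), cetuximab against untreated 264 instead of 411, the interaction of EGF and cetuximab 16 instead of 154, the comparison at 4 h 23 instead of 51 and the difference between the times 136 instead of 468. Of 152 named genes that passed, 32 did not pass without the block, and 0 of these 152 changed direction in any alternative of the edgeR and DESeq2 fits. Among named genes that did not pass, ERBB4, SPRY2, CCL2 and KRT8 changed sign in at least 1 alternative, without passing.

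With at least 10 counts in every library, fewer genes were tested and the counts were 347 against untreated, 44 against EGF, 1497 against cetuximab, 953 for EGF, 141 for cetuximab and 28 at 4 h. With only the 21 libraries of 24 h, 62 genes were regulated against EGF and 86 in the interaction. With 1 library left out, the counts ranged from 552 (without untreated replicate 1) to 1192 (without untreated replicate 3) against untreated, from 73 to 131 against EGF, from 2507 to 2986 against cetuximab, from 1461 to 2251 for EGF, from 194 to 567 for cetuximab, from 104 to 205 for the interaction, from 39 to 68 at 4 h and from 258 to 721 for the difference between the times. The cause was not tested.

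Library size alone shifted the median of all genes to -0.145, gave 8.88% higher genes against untreated and 58.5% against EGF, and turned list medians to -0.021 (receptor-level feedback), -0.012 (ERK-responsive transcription factors), -0.122 (chemokines), -0.05 (metalloproteinases and TIMPs), -0.037 (G2/M), -0.03 (cell cycle entry), -0.118 (stress response) and -0.114 (gastric and gut lineage). The fit of the 6 libraries alone gave 675 genes, DESeq2 793, its size factors in edgeR 834 and no filter 791. The interaction and the difference between the times could not be fitted with the 6 libraries alone. The 60 higher and 410 lower regulated genes below 1 CPM in both groups rest on few counts.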
